A study of Homo sapiens with 12 samples.

Results

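The response of HCT 116p53-/- cells to Actinomycin D (Act D) was measured by RNA-seq in 6 libraries, 3 from cells given 5 nM Act D for 24 h and 3 from cells given vehicle. The members were chosen by their labels alone, and they are 6 of the 12 libraries of the series. HCT 116 is an established human colon carcinoma line, and the sub-line used here is described as lacking p53, a transcription factor, in treated and control cells alike. The other 6 libraries come from cells labelled RPL3 KO and described by the study as HCT 116p53-/- cells stably silenced for uL3, the ribosomal protein that RPL3 encodes, with the same treatments, and they are used below only where the 2 responses were compared. Each line is a single line, and nothing in the labels says that the 3 libraries of a group came from cultures started on different days, so that p-values measure the spread between these libraries, which may be technical.

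Act D is a drug that intercalates into GC-rich DNA and blocks elongating RNA polymerases. At low dose it acts first on RNA polymerase I, which transcribes the ribosomal RNA genes in the nucleolus, so that ribosome production stops and free ribosomal proteins reach the nucleoplasm, a state called nucleolar stress. In cells with p53 these proteins bind MDM2, the ubiquitin ligase that keeps p53 scarce, and p53 then induces genes that stop the cell cycle, repair DNA or kill the cell. Many of those genes can also be induced by other transcription factors, and the comparison describes what they and other genes did in cells labelled as lacking p53.

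Total counts were between 12136702 and 15293003 per library, and levels are given as CPM, counts scaled to a normalised library of 1000000. E-cadherin, EpCAM and the simple-epithelium keratins, which mark colon epithelial cells, were present in every library, with KRT8 at 1047, 1182 and 1119.8 CPM in the vehicle libraries and 1258, 1259.8 and 1194 CPM with Act D. CDX1 had no count and VIL1, CDH17, GPA33 and LGALS4, markers of differentiated gut epithelium, were near 0. The summed level of 9 fibroblast and mesenchymal markers was between 12.2 and 13.9 CPM with vehicle and between 16.4 and 21.9 CPM with Act D, 8 leukocyte markers summed to at most 1.76 CPM and 5 endothelial markers to at most 1.83 CPM in any library. RPL3 was counted at 1151, 1121 and 1141 CPM with vehicle against 1137, 1132 and 1112 CPM with Act D, and in the libraries labelled RPL3 KO its mean was 1242 and 1224 CPM, so that it was not lower under that label.

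Of 15692 genes tested, 2976 differed between Act D and vehicle (19.0%). Of these, 1211 rose (7.72% of the genes tested) and 1765 fell (11.2%), where a gene counts as changed if its Benjamini-Hochberg adjusted p in the quasi-likelihood test of edgeR was below 0.05. Most changes were small: the median log2 fold change was 0.47 among the genes that rose and -0.57 among those that fell, and 189 and 261 of them changed by at least 1 on the log2 scale. The calls included 1131 protein-coding and 45 long non-coding genes that rose, and 1674 and 66 that fell. When libraries were scaled by total count alone, which lowers the median log2 fold change of all genes from 0.02 to -0.08, 550 genes rose and 2315 fell, so that genes that rose made up 19.2% of the calls instead of 40.7%. The count of genes that rose was 697 without Act D replicate 1 and 743 without Act D replicate 2, and the count in either direction was 1906 without Act D replicate 1.

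**Figure D1:**
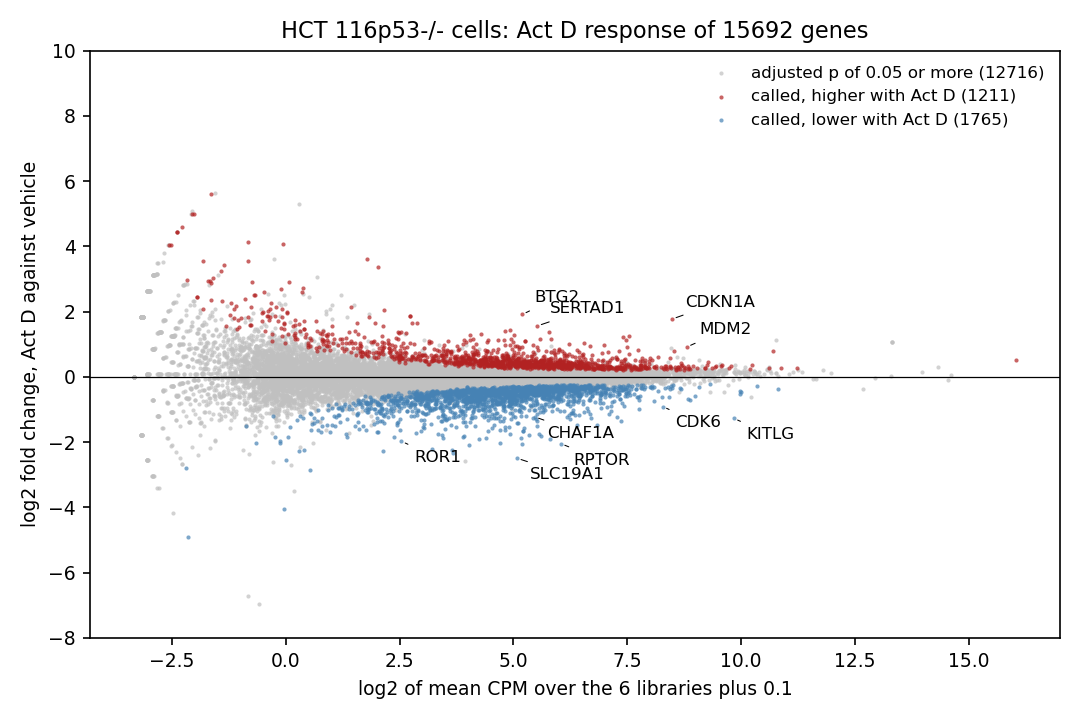
Log2 fold change with Act D (vertical axis) against the log2 of mean CPM over the 6 libraries plus 0.1 (horizontal axis) for 15692 genes, with 1211 called higher in red, 1765 called lower in blue and the others in grey. CDKN1A, BTG2 and SERTAD1 lie above most genes of their level, and SLC19A1, RPTOR and KITLG below most, while the widest scatter is at the lowest levels on the left.

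The largest increases, ranked among called genes with a mean of at least 5 CPM in 1 group and groups that do not overlap, genes far more abundant in the libraries labelled RPL3 KO aside, included genes of cell cycle arrest and early response. BTG2 (chr1:203305491-203309602), an antiproliferative cofactor of messenger RNA deadenylation, was counted at 15.1, 17.1 and 13.7 CPM with vehicle against 61.3, 56.3 and 55.4 CPM with Act D, 3.77 times higher (log2 fold change ± standard error 1.91 ± 0.17, adjusted p = 2.43e-07). CDKN1A (chr6:36676460-36687337), which encodes the cyclin-dependent kinase inhibitor p21, was at 154, 173 and 159 CPM with vehicle against 577, 563 and 523 CPM with Act D (log2 fold change 1.77 ± 0.08, adjusted p = 5.01e-13). SERTAD1 (chr19:40421589-40425992), a cofactor of cyclin D and E2F, was at 21, 26.1 and 22.7 and then 71.8, 71.5 and 62.8 CPM (log2 fold change 1.56 ± 0.13, adjusted p = 2.85e-08). In all 3 genes the lowest Act D library stood more than 2 times above the highest vehicle library. The same ranking held TENT5C, a poly(A) polymerase (log2 fold change 1.66 ± 0.17, adjusted p = 2.12e-07), CARD9, an adaptor of innate immune signalling (log2 fold change 1.84 ± 0.29, adjusted p = 5.99e-05), the adhesion receptor gene NECTIN4 (log2 fold change 1.64 ± 0.30, adjusted p = 2.96e-04), the amine oxidase gene AOC3 (log2 fold change 1.57 ± 0.24, adjusted p = 3.33e-05) and GRIN2C, an NMDA receptor subunit that rose from 1.69 to 7.08 CPM. An unnamed locus, ENSG00000257524, had the largest fold change in this ranking (10.4 times), but the spread that RSEM gives for its counts was large, since reads that fit several loci were divided among them.

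The largest decreases in the same ranking fell on genes of other kinds. SLC19A1 (chr21:45493572-45573365), the reduced folate carrier, was counted at 51.5, 57.6 and 62.8 CPM with vehicle against 9.09, 10.5 and 10.9 CPM with Act D, 5.63 times lower (log2 fold change -2.49 ± 0.13, adjusted p = 4.18e-12). RPTOR (chr17:80544819-80966371), the scaffold of the growth-controlling kinase complex mTORC1, was at 93.2, 115 and 110.3 and then 26.7, 24.7 and 25.6 CPM (log2 fold change -2.05 ± 0.15, adjusted p = 3.68e-08). NACC2 (chr9:136006537-136095289), a BTB-domain transcriptional repressor, was at 54.4, 61.02 and 61.5 and then 15.8, 14.4 and 12.4 CPM (log2 fold change -2.05 ± 0.13, adjusted p = 1.30e-10). In each of the 3 the groups did not overlap, which the ranking required. ROR1, a receptor of the Wnt5a ligand, was 3.93 times lower (adjusted p = 7.73e-07), KAZN, a desmosome-associated protein, 4.58 times (adjusted p = 1.78e-07), ARHGAP39, a GTPase-activating protein, 5.07 times (adjusted p = 3.73e-07), CAPN15, a calpain protease, 4.09 times (adjusted p = 3.07e-06), and ITPRIPL2 3.73 times (adjusted p = 9.47e-12). In absolute level the greatest loss among called genes was that of KITLG, which encodes stem cell factor, the ligand of the receptor KIT. Its level was 1414, 1186 and 1286 CPM with vehicle against 519, 506 and 586 CPM with Act D (log2 fold change -1.27 ± 0.10, adjusted p = 2.21e-08). The other genes with the greatest loss in CPM were FAT1, a giant cadherin (log2 fold change -0.36 ± 0.08, adjusted p = 0.00242), AKAP12, a scaffold of protein kinase A (log2 fold change -0.54 ± 0.08, adjusted p = 1.95e-05), EZR, which ties actin to the cell membrane (log2 fold change -0.47 ± 0.07, adjusted p = 4.93e-05), and TXNRD1, thioredoxin reductase (log2 fold change -0.42 ± 0.10, adjusted p = 0.00422).

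The promoter windows of 2 genes that rose and 2 that fell are shown because promoter composition differed between the genes called in the 2 directions, as described further on. Each window runs from 250 bases before to 50 bases after the start that RefSeq gives (GRCh38.p14, the hg38 build), 5′ to 3′ on the strand of the gene, and capitals mark CpG, the dinucleotide that is dense in CpG islands. The windows are at chr1:203305269-203305568 (plus strand), chr6:36678464-36678763 (plus strand), chr9:136095240-136095539 (minus strand) and chr17:80544588-80544887 (plus strand).
BTG2: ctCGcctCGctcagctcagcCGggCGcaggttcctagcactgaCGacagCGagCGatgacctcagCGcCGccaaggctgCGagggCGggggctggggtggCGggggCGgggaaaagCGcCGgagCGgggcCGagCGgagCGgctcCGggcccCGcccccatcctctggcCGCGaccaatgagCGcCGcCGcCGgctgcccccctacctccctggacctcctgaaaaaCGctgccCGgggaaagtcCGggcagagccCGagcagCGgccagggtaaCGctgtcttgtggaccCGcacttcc
CDKN1A: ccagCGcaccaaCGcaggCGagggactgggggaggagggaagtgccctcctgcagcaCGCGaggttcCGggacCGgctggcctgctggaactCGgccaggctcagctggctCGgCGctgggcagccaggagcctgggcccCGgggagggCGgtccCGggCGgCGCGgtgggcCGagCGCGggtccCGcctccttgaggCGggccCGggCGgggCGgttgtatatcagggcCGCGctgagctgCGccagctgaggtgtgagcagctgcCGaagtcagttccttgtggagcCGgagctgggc
NACC2: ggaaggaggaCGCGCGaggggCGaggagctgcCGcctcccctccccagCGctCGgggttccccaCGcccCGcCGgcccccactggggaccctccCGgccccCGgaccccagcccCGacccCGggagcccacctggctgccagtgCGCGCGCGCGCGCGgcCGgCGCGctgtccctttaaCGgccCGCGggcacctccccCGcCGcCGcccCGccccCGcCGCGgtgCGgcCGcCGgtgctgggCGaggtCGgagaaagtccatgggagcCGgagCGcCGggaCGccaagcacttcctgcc
RPTOR: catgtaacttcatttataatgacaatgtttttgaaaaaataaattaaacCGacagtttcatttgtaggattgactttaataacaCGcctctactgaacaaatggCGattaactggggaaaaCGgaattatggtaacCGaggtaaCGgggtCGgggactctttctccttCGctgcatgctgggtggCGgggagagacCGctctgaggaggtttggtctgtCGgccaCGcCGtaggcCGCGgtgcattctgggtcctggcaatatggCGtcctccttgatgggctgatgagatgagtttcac
These windows hold 34, 29, 43 and 16 CpG. The window of NACC2 is 80.7% G or C and that of RPTOR 48.0%, so that the 2 genes with nearly the same fold change stand at far ends of promoter composition.

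The p53 target list holds 48 genes that p53 can induce or that act beside it, of which 47 were tested. Of these, 32 rose (68.1%) and 4 fell (8.51%), beside 7.72% and 11.2% of all genes. The median log2 fold change was 0.49, against 0.02 over all genes tested. The count of members that rose was between 27 and 32 when each library was left out in turn. In 38 of the 47 all 3 Act D libraries stood above all 3 vehicle libraries, while groups did not overlap, in either direction, for 38.2% of all genes tested.

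Among the members that halt the cell cycle, all 11 rose, with a median log2 fold change of 1.12. Besides CDKN1A and BTG2, described above, GADD45A, which binds PCNA and CDK1 after DNA damage, was at 17.95, 16.4 and 17.5 CPM with vehicle against 36.3, 40.2 and 37.7 CPM with Act D (log2 fold change 1.14 ± 0.11, adjusted p = 8.58e-08). PLK2, a polo-like kinase that restrains G1, was at 123, 105 and 107 and then 256, 235 and 238 CPM (log2 fold change 1.12 ± 0.10, adjusted p = 2.53e-08). Both sestrins of the list, which sense leucine and restrain mTORC1, rose as well: SESN2 was at 12.9, 15.8 and 17.3 and then 38.6, 40.8 and 42.5 CPM (log2 fold change 1.41 ± 0.13, adjusted p = 5.74e-08). For SESN1 the values were 10.4, 10.3 and 7.91 and 20.6, 25.1 and 23.9 CPM (log2 fold change 1.28 ± 0.15, adjusted p = 8.33e-07). None of these genes had a vehicle library that reached the lowest Act D library, but groups did not overlap in 2930 of all 2976 genes called. The smallest change of the group was that of E2F7, a repressive member of the E2F family (log2 fold change 0.47 ± 0.09, adjusted p = 6.46e-04).

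Of 13 members that act in cell death, for or against it, 9 rose and 1 fell. The death receptor gene TNFRSF10B, for the TRAIL receptor DR5, was at 121, 127 and 128 CPM with vehicle against 239, 236 and 229 CPM with Act D (log2 fold change 0.91 ± 0.08, adjusted p = 1.40e-08), and FAS, the CD95 receptor, was at 16.98, 15.9 and 14.4 and 33.3, 35.98 and 34.7 CPM (log2 fold change 1.14 ± 0.13, adjusted p = 6.81e-07). PMAIP1, which encodes the BH3-only protein NOXA, was at 28.1, 22.3 and 22.2 and then 53.7, 51.3 and 52.3 CPM (log2 fold change 1.11 ± 0.11, adjusted p = 1.78e-07). BBC3, which encodes PUMA, was lower and more spread, at 6.68, 13.8 and 7.61 and then 19.6, 24.1 and 17.9 CPM (log2 fold change 1.14 ± 0.25, adjusted p = 0.00647). TP53INP1, a stress protein of the nucleus and of autophagosomes, was 2.73 times higher (adjusted p = 7.54e-07). For BAX, the pore-forming effector, the values were 24.3, 29.96 and 21.6 CPM with vehicle against 33.2, 30.4 and 28.9 CPM with Act D (log2 fold change 0.29 ± 0.13, adjusted p = 0.119), so that it was not called. BCL2L1, which encodes the death antagonist BCL-XL, was the member that fell (log2 fold change -0.35 ± 0.08, adjusted p = 0.00282). A wider list of apoptosis genes shares members with these, among them TNFRSF10B, FAS, PMAIP1 and BCL2L1. Of its 42 tested genes 8 rose (19.0%) and 4 fell (9.52%), beside 7.72% and 11.2% of all genes, so that part of its calls are those given above. Its median log2 fold change was -0.05, and with scaling by total count 5 rose and 5 fell. Among 12 pro-death genes of the BCL2 family in that list 3 rose and 1 fell.

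The members that feed back on p53 or belong to its network went both ways, with 3 that rose and 3 that fell of 10 tested. MDM2 (chr12:68808177-68845544) was at 326, 294 and 310.0 CPM with vehicle against 578, 551 and 629 CPM with Act D (log2 fold change 0.92 ± 0.09, adjusted p = 9.64e-08), and PPM1D, the phosphatase WIP1 that switches off the damage response, was at 51.7, 47.8 and 47.6 and then 100.3, 92.4 and 104 CPM (log2 fold change 1.01 ± 0.09, adjusted p = 5.74e-08). TP73, the gene of the p53 relative p73, fell from 15.8, 19.5 and 18.96 CPM with vehicle to 5.86, 7.84 and 5.71 CPM with Act D (log2 fold change -1.48 ± 0.17, adjusted p = 7.50e-07). COP1, another ubiquitin ligase of p53, was 1.88 times lower (adjusted p = 3.79e-06), and MDM4, the partner of MDM2, 1.36 times lower (adjusted p = 0.0035). The vehicle and Act D libraries did not overlap in any of these 5 genes, as in 2930 of all 2976 genes called.

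Among members of repair and metabolism 9 of 13 rose and none fell. PHLDA3, an inhibitor of AKT, was at 17.95, 17.8 and 20.2 CPM with vehicle against 44.2, 50.6 and 43.03 CPM with Act D (log2 fold change 1.30 ± 0.13, adjusted p = 1.36e-07). TIGAR, a fructose bisphosphatase that turns glucose towards the pentose phosphate pathway, was 2.14 times higher (adjusted p = 2.27e-07), POLH, the polymerase that copies past UV lesions, 1.9 times (adjusted p = 2.83e-07), and GDF15, a secreted stress cytokine, 2.26 times (adjusted p = 1.80e-04). A p53 half-site, the decamer that p53 binds in pairs, was searched on both strands of the promoter windows: 6.61% of all 22114 windows held a match, and among tested genes with a single window, those far more abundant in the libraries labelled RPL3 KO aside, 5.01% of 7823 did, 6.02% of the 648 that rose and 4.63% of the 951 that fell. Of the list members 3 of 26 windows held a match, and 2 of the 20 of members that rose. None of the 4 windows printed above held a match, which says only that the sequence is not in these windows.

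**Figure D2:**
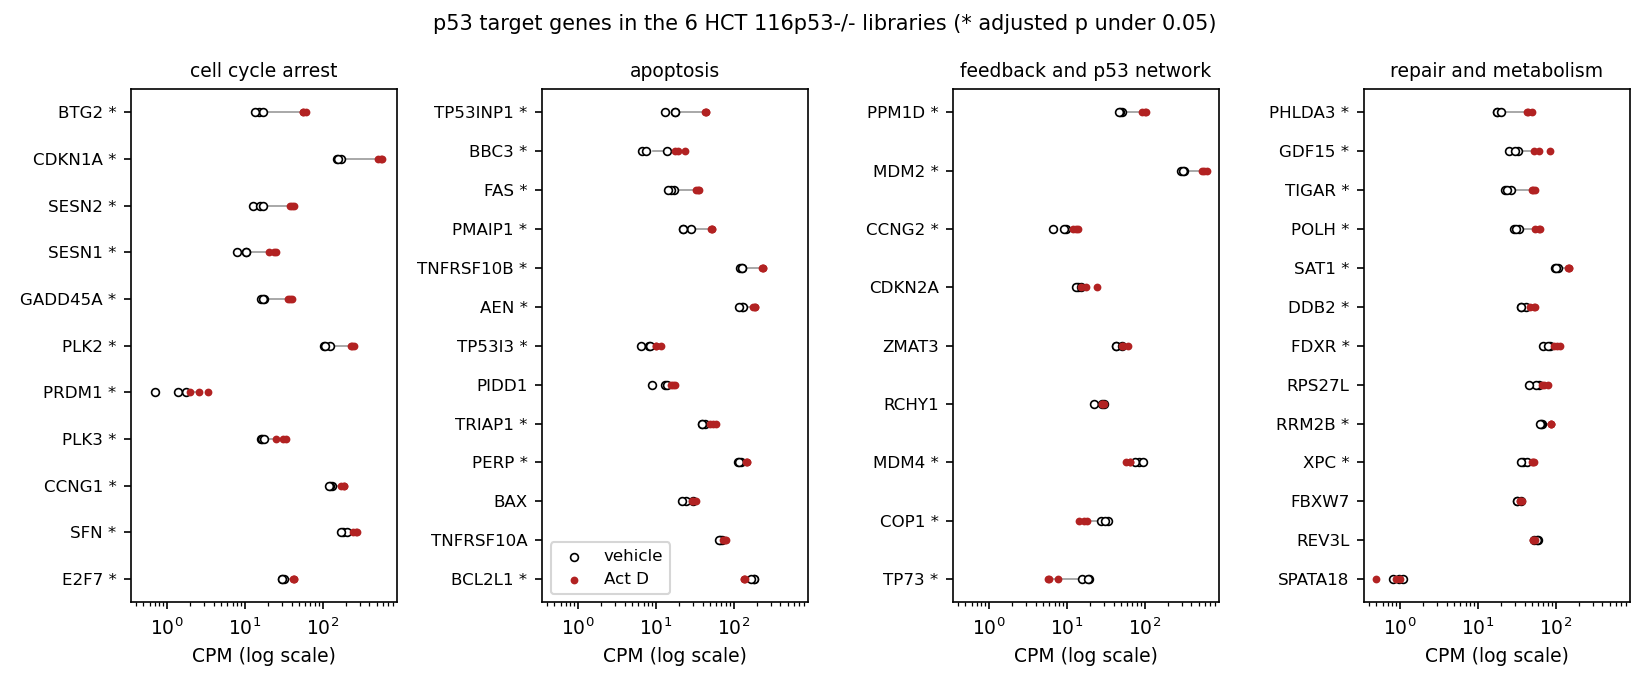
CPM on a log scale for 46 of the 47 tested p53 target genes in the 3 vehicle libraries (open circles) and the 3 Act D libraries (red), in 4 groups by role, with a star for each gene called. The 11 genes of cell cycle arrest all lie to the right with Act D, whereas TP73, COP1 and MDM4 in the group of feedback and network members lie to the left.

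Immediate early genes, which code for short-lived factors such as those of the AP-1 family and are usually induced within minutes of a stimulus, were measured here at 24 h. Of 38 listed, 17 rose (44.7%, beside 7.72% of all genes), 1 fell (2.63%, beside 11.2%) and 20 were not called. The median log2 fold change was 0.49, and 1 of the 17 was among genes far higher in the libraries labelled RPL3 KO, described below. The list shares BTG2 and other genes with the p53 target list. ATF3, a stress-induced repressor that pairs with JUN, was at 11.3, 10.9 and 10.7 CPM with vehicle against 27.5, 27.2 and 28.1 CPM with Act D (log2 fold change 1.33 ± 0.16, adjusted p = 9.51e-06). IER5, a cofactor of heat shock factor, was at 33.4, 37.1 and 35.1 and then 75.1, 86.4 and 72.7 CPM (log2 fold change 1.15 ± 0.09, adjusted p = 7.53e-09), and MCL1, the short-lived antagonist of cell death, at 166, 149 and 146 and then 269, 284 and 268 CPM (log2 fold change 0.83 ± 0.08, adjusted p = 1.02e-07). FOSB (log2 fold change 0.88 ± 0.17, adjusted p = 6.44e-04) and JUNB (log2 fold change 0.65 ± 0.13, adjusted p = 0.0021) rose as well. EGR1 (log2 fold change 0.18 ± 0.22, adjusted p = 0.627) and FOS (log2 fold change 0.57 ± 0.22, adjusted p = 0.099) did not pass the test, and the member that fell was ID3, an inhibitor of basic helix-loop-helix factors (log2 fold change -0.60 ± 0.14, adjusted p = 0.00355).

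Genes that control the release of RNA polymerase II from its pause near the start site included several that rose. Of 30 listed, 7 rose (23.3%) and 3 fell (10.0%), beside 7.72% and 11.2% of all genes, and the median log2 fold change was 0.10. BRD2, a reader of acetylated histones, was at 275, 286 and 256 CPM with vehicle against 484, 459 and 465 CPM with Act D (log2 fold change 0.79 ± 0.08, adjusted p = 7.97e-08). CCNT1, the cyclin of the elongation factor P-TEFb, was at 127, 122 and 116 and then 195, 176 and 183 CPM (log2 fold change 0.60 ± 0.09, adjusted p = 5.86e-05), and HEXIM1, the protein that holds P-TEFb inactive, at 37.1, 42.8 and 55.9 and then 78.5, 89.4 and 80.6 CPM (log2 fold change 0.87 ± 0.17, adjusted p = 0.00242). ELL2, a subunit of the super elongation complex, rose by 0.49 on the log2 scale (adjusted p = 7.42e-04). For POLR2A, the largest subunit of RNA polymerase II, all Act D libraries (444, 438 and 492 CPM) lay above the vehicle libraries (204, 235 and 304 CPM), but the spread was wide and it did not pass the test (log2 fold change 0.89 ± 0.29, adjusted p = 0.0663).

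In the lists of DNA replication and repair more members fell than rose, and most were not called. Of 59 E2F factors and replication genes, 21 fell (35.6%, beside 11.2% of all genes), 3 rose (5.08%, beside 7.72%) and 35 were not called. The median log2 fold change was -0.15, and the count that fell was between 15 and 18 when each library was left out. CHAF1A, the large subunit of the chromatin assembly factor that follows the fork, was at 62.4, 65.3 and 57.6 CPM with vehicle against 25.3, 27.05 and 27.02 CPM with Act D (log2 fold change -1.22 ± 0.10, adjusted p = 4.23e-09). Subunits of the origin recognition complex diverged: ORC2 was at 40.4, 38.4 and 38.4 and then 22.6, 22.5 and 22.8 CPM (log2 fold change -0.79 ± 0.11, adjusted p = 8.70e-06) and ORC5 at 34.6, 35.9 and 33.9 and then 16.7, 19.3 and 22.1 CPM (log2 fold change -0.85 ± 0.12, adjusted p = 2.59e-05). ORC6 instead was at 58.01, 56.7 and 53.9 and then 80.3, 74.7 and 78.2 CPM (log2 fold change 0.47 ± 0.10, adjusted p = 0.00139). In none of the 3 did the groups overlap, as in nearly all genes called. E2F2, an activating factor of the family, was 1.84 times lower (adjusted p = 4.11e-05), while PCNA, the sliding clamp, was 1.27 times higher (adjusted p = 0.00213) and MCM2, a helicase subunit, was at 217, 249 and 228 CPM with vehicle against 241, 242 and 218 CPM with Act D (log2 fold change 0.02 ± 0.09, adjusted p = 0.938). The fall was seldom deep: 1 of the 21 members reached a log2 fold change of -1.

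Of 45 genes of double-strand break and Fanconi repair, 14 fell (31.1%, beside 11.2% of all genes) and none rose, with a median of -0.20. XRCC3 was at 29.4, 33.9 and 32.8 CPM with vehicle against 16.7, 17.3 and 14.5 CPM with Act D (log2 fold change -0.98 ± 0.13, adjusted p = 1.06e-05), and XRCC2 at 27.4, 25.2 and 28.3 and then 12.7, 13.998 and 16.2 CPM (log2 fold change -0.92 ± 0.13, adjusted p = 1.28e-05); both act in homologous recombination. RAD51D (log2 fold change -0.71 ± 0.12, adjusted p = 1.17e-04), FANCC (log2 fold change -0.87 ± 0.15, adjusted p = 2.52e-04), BRCA1 (log2 fold change -0.48 ± 0.10, adjusted p = 0.00109) and BRCA2 (log2 fold change -0.52 ± 0.13, adjusted p = 0.0082) were lower too, whereas the checkpoint kinase genes ATM (log2 fold change -0.18 ± 0.09, adjusted p = 0.185) and CHEK1 (log2 fold change -0.22 ± 0.09, adjusted p = 0.0936) did not pass the test. Of the 14, 5 were among the 11 members in the longest 20% of all genes by genomic span, and 9 among the 34 shorter members.

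Of 64 mitotic genes 6 rose (9.38%) and 8 fell (12.5%), close to the 7.72% and 11.2% of all genes tested, with a median of 0.04. When libraries were scaled by total count 3 rose and 12 fell, with a median of -0.06, and under the upper quartile 10 rose and 8 fell. NEK2 (log2 fold change 0.42 ± 0.10, adjusted p = 0.00281) and KIF20A (log2 fold change 0.41 ± 0.09, adjusted p = 0.00327), a kinase and a kinesin of mitosis, were higher, and MELK (log2 fold change -0.47 ± 0.09, adjusted p = 4.53e-04), KIF15 (log2 fold change -0.55 ± 0.11, adjusted p = 9.22e-04) and the kinetochore gene CENPK (log2 fold change -0.91 ± 0.19, adjusted p = 0.00123) were lower. In G1 control, CDK6 was at 453, 370.5 and 392 CPM with vehicle against 210.1, 208 and 229.9 CPM with Act D (log2 fold change -0.91 ± 0.09, adjusted p = 8.82e-08), and cyclin D1, CCND1, at 601, 586 and 653 and then 388, 434 and 392 CPM (log2 fold change -0.60 ± 0.11, adjusted p = 4.66e-04). RBL1, the pocket protein p107, was 1.73 times lower (adjusted p = 5.55e-05). Of 10 inhibitors, 5 rose; next to CDKN1A stood CDKN2B, which encodes p15, at 3.56, 3.31 and 2.596 CPM with vehicle against 9.53, 6.83 and 8.28 CPM with Act D (log2 fold change 1.38 ± 0.18, adjusted p = 4.84e-06).

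Since the drug acts on the nucleolus, the genes of ribosome production were described separately. Of 79 cytosolic ribosomal protein genes 6 rose (7.59%, close to the 7.72% of all genes) and none fell, with a median of 0.15, while none rose and 1 fell when libraries were scaled by total count and 13 rose under the upper quartile. Of 24 genes of RNA polymerase I transcription 3 rose (POLR2F, CAVIN1 and TAF1D) and none fell, but each of the 3 calls was lost under some alternative (adjusted p up to 0.0833, 0.0915 and 0.277). With scaling by total count none rose and 1 fell, and the median turned from 0.07 to -0.03. POLR1A, the largest subunit of the polymerase, was at 154, 172 and 181 CPM with vehicle against 157, 148 and 158 CPM with Act D, and the initiation factors RRN3 (log2 fold change 0.12 ± 0.09, adjusted p = 0.389) and UBTF (log2 fold change 0.07 ± 0.09, adjusted p = 0.608) did not pass the test. Of 109 ribosome assembly factors 8 rose and 8 fell (7.34% each, beside 7.72% and 11.2% of all genes). With scaling by total count 4 of these factors rose and 14 fell. The helicase gene DDX10 was at 141, 123 and 118 CPM with vehicle against 63.3, 57.1 and 61.8 CPM with Act D (log2 fold change -1.07 ± 0.09, adjusted p = 1.40e-08). BOP1 (log2 fold change -0.75 ± 0.12, adjusted p = 1.80e-04), MDN1 (log2 fold change -0.60 ± 0.08, adjusted p = 1.72e-05) and NVL (log2 fold change -0.61 ± 0.11, adjusted p = 3.61e-04), which act on the large subunit, were lower, and UTP25 (log2 fold change 0.43 ± 0.10, adjusted p = 0.00269) and RIOK2 (log2 fold change 0.51 ± 0.13, adjusted p = 0.0061), which act on the small subunit, were higher. NPM1, the main nucleolar scaffold protein, was at 1836, 1667 and 1511 and then 1811, 1742 and 1856 CPM (log2 fold change 0.11 ± 0.08, adjusted p = 0.405). The ribosomal RNA itself was removed before these counts were made, so that its synthesis is not measured here.

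mTORC1 and its regulators, the autophagy machinery and the lysosome were listed because the study addressed autophagy. Of 46 mTORC1 genes 9 rose (19.6%) and 5 fell (10.9%), beside 7.72% and 11.2% of all genes. With scaling by total count 4 of these genes rose and 7 fell. RPTOR, which fell most among them, is described above. Of the other subunits, MTOR was at 125, 133 and 124 CPM with vehicle against 109.6, 101 and 104 CPM with Act D (log2 fold change -0.28 ± 0.09, adjusted p = 0.0271), a call that did not hold under every alternative (adjusted p up to 0.247), and AKT1S1, which encodes the inhibitory subunit PRAS40, was 1.43 times higher (adjusted p = 0.00134). Of its regulators, SESN3, another sestrin (log2 fold change 0.88 ± 0.18, adjusted p = 9.64e-04), was higher, whereas PIK3CB, a catalytic subunit of PI3-kinase (log2 fold change -0.88 ± 0.15, adjusted p = 2.27e-04), and DEPDC5, of the GATOR1 complex (log2 fold change -0.75 ± 0.15, adjusted p = 5.92e-04), were lower.

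Of 41 autophagy genes 7 rose (17.1%) and 4 fell (9.76%), beside 7.72% and 11.2% of all genes. With scaling by total count 3 autophagy genes rose and 6 fell. MAP1LC3B, which encodes the LC3B protein of the autophagosome membrane, was at 57.7, 56.3 and 79.2 CPM with vehicle against 103, 111 and 111 CPM with Act D (log2 fold change 0.75 ± 0.11, adjusted p = 2.38e-05). Within the ULK complex, which starts autophagy, ATG101 was at 44.7, 46.6 and 33.6 and then 63.2, 59.4 and 57.2 CPM (log2 fold change 0.53 ± 0.11, adjusted p = 0.00201). ULK1, at 8.94, 11.5 and 13.6 and then 17.1, 15.3 and 14.6 CPM (log2 fold change 0.47 ± 0.15, adjusted p = 0.0261), was called by a narrower margin and lost the call under some alternatives (adjusted p up to 0.161), and ATG13 was not called (log2 fold change 0.04 ± 0.11, adjusted p = 0.851). The genes that fell included AMBRA1, a regulator of nucleation (log2 fold change -0.69 ± 0.11, adjusted p = 6.75e-05), and ATG7 (log2 fold change -0.67 ± 0.11, adjusted p = 9.39e-05) and ATG5 (log2 fold change -0.44 ± 0.10, adjusted p = 0.0029), which conjugate LC3 to lipid. SQSTM1, the cargo receptor p62 (log2 fold change 0.24 ± 0.11, adjusted p = 0.143), BECN1 (log2 fold change 0.19 ± 0.09, adjusted p = 0.173) and TFEB, the factor that drives lysosomal genes (log2 fold change -0.33 ± 0.31, adjusted p = 0.503), did not pass the test. Of 41 lysosomal genes 9 rose (22.0%) and 1 fell (2.44%). Those that rose included GLA, the alpha-galactosidase (log2 fold change 0.54 ± 0.09, adjusted p = 2.20e-04), ATP6V1D, a subunit of the proton pump (log2 fold change 0.45 ± 0.09, adjusted p = 7.65e-04), and FLCN, folliculin (log2 fold change 0.53 ± 0.13, adjusted p = 0.00558). With scaling by total count 3 of the lysosomal genes rose and 1 fell.

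Surface and signalling genes changed in mixed directions. EGFR (chr7:55019017-55211628) was at 145, 135 and 146 CPM with vehicle against 61.7, 60.8 and 69.1 CPM with Act D (log2 fold change -1.15 ± 0.12, adjusted p = 2.36e-07), while the gene of one of its ligands, HBEGF, was at 11.6, 10.3 and 8.997 and then 23.3, 22.5 and 21.2 CPM (log2 fold change 1.12 ± 0.12, adjusted p = 3.73e-07). Of 43 Wnt pathway genes 9 fell (20.9%) and 3 rose (6.98%), beside 11.2% and 7.72% of all genes. Of the 3, 1 was among genes far higher in the libraries labelled RPL3 KO, described below. Under the upper quartile 9 Wnt genes fell and 7 rose. TCF7L2, the factor that carries beta-catenin to its targets in the gut, was at 49.3, 56.3 and 62.1 CPM with vehicle against 15.1, 15.9 and 22.2 CPM with Act D (log2 fold change -1.66 ± 0.15, adjusted p = 2.24e-07). ZNRF3, a ligase that removes Wnt receptors (log2 fold change -1.26 ± 0.15, adjusted p = 2.82e-06), GSK3B, the kinase that marks beta-catenin for decay (log2 fold change -0.67 ± 0.09, adjusted p = 1.25e-05), and DVL1, a receptor scaffold (log2 fold change -0.83 ± 0.11, adjusted p = 1.62e-05), also fell, so that both activators and inhibitors of the pathway were among the members that fell. EPHB3, a Wnt target of the crypt base, rose (log2 fold change 1.11 ± 0.17, adjusted p = 5.99e-05). Of 35 TGF-beta genes 6 fell (17.1%) and 2 rose (5.71%), against 11 and 2 with scaling by total count. The falls included BMPR1A (log2 fold change -0.88 ± 0.11, adjusted p = 3.22e-06), SMURF2 (log2 fold change -0.67 ± 0.10, adjusted p = 2.06e-05) and SMAD3 (log2 fold change -0.64 ± 0.11, adjusted p = 1.17e-04), a receptor, a ligase and a signal carrier of the pathway.

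In the NF-kB pathway 6 of 33 rose (18.2%) and 3 fell (9.09%), beside 7.72% and 11.2% of all genes. With scaling by total count 4 rose and 4 fell. Of the 6, 1 was LTB, near 0 CPM here and among genes far higher in the libraries labelled RPL3 KO, described below. The feedback inhibitors NFKBIE (log2 fold change 0.69 ± 0.12, adjusted p = 1.69e-04) and TNFAIP3 (log2 fold change 0.64 ± 0.15, adjusted p = 0.00358) were higher, and the adaptor genes TRAF2, at 18.1, 25.1 and 20.3 CPM with vehicle against 10.5, 8.93 and 8.61 CPM with Act D (log2 fold change -1.18 ± 0.17, adjusted p = 3.95e-05), and TRAF3 (log2 fold change -0.91 ± 0.12, adjusted p = 1.51e-05) were lower. Of 29 IL6-JAK-STAT3 genes 6 rose (20.7%) and none fell, led by BCL6, a transcriptional repressor (log2 fold change 0.96 ± 0.17, adjusted p = 4.95e-04). Of 19 genes of MHC class I presentation 7 rose (36.8%) and none fell, with HLA-E (log2 fold change 0.62 ± 0.10, adjusted p = 5.84e-05) and the peptide transporter gene TAP1 (log2 fold change 0.57 ± 0.11, adjusted p = 8.15e-04) foremost. Under scaling by total count 3 and 2 members of these lists rose. Of 34 interferon-stimulated genes 1, DHX58, was called, and it lost the call under some alternative (adjusted p up to 0.0535).

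Among the metabolic and proteostasis lists, folate and one-carbon genes showed 6 that fell (19.4%) and none that rose of 31. These included SLC19A1, described above, MTHFD1L of the mitochondrial folate cycle (log2 fold change -0.50 ± 0.09, adjusted p = 4.24e-04) and MTR, methionine synthase (log2 fold change -0.45 ± 0.09, adjusted p = 0.00139). In glycolysis and the hypoxia response 7 of 45 fell (15.6%) and 3 rose (6.67%, 1 of them a gene far higher in the libraries labelled RPL3 KO), beside 11.2% and 7.72% of all genes. Under the upper quartile 4 of the 45 fell and 5 rose. SLC2A1, the glucose transporter GLUT1, was at 331, 326 and 358 CPM with vehicle against 197, 202 and 206 CPM with Act D (log2 fold change -0.75 ± 0.09, adjusted p = 2.59e-06). The ATF4 stress response was split, with 6 of 37 in each direction, against 4 that rose and 8 that fell with scaling by total count: ATF3 and SESN2 rose, and the amino acid carriers SLC38A2 (log2 fold change -0.72 ± 0.10, adjusted p = 1.48e-05) and SLC7A1 (log2 fold change -0.70 ± 0.13, adjusted p = 0.00105) fell. BAG3, a cochaperone of HSP70, was the heat shock gene with the smallest p (log2 fold change 0.75 ± 0.10, adjusted p = 5.71e-06), and 7 of 25 in its list rose and none fell, while 3 rose with scaling by total count. Of 31 proteasome subunits 8 rose (25.8%) and 1 fell (3.23%), but 1 rose under scaling by total count, and PSMD12 (log2 fold change 0.50 ± 0.09, adjusted p = 3.98e-04) led the list. ODC1, which makes polyamines and is a MYC target, was higher (log2 fold change 0.47 ± 0.08, adjusted p = 1.22e-04), and MYC itself was at 384, 395 and 376 CPM with vehicle against 322, 324 and 314 CPM with Act D (log2 fold change -0.27 ± 0.08, adjusted p = 0.0161), a call lost under some alternatives (adjusted p up to 0.087). In the splicing list 7 of 33 rose (21.2%) and 5 fell (15.2%), against 2 and 7 with scaling by total count. SRSF3, a splicing factor, was at 395, 366 and 363 and then 239, 235 and 254 CPM (log2 fold change -0.63 ± 0.08, adjusted p = 7.10e-06), and SRPK2, a kinase of such factors, was 1.88 times lower (adjusted p = 4.18e-06), while TRA2A was higher (log2 fold change 0.58 ± 0.11, adjusted p = 3.61e-04).

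**Figure D3:**
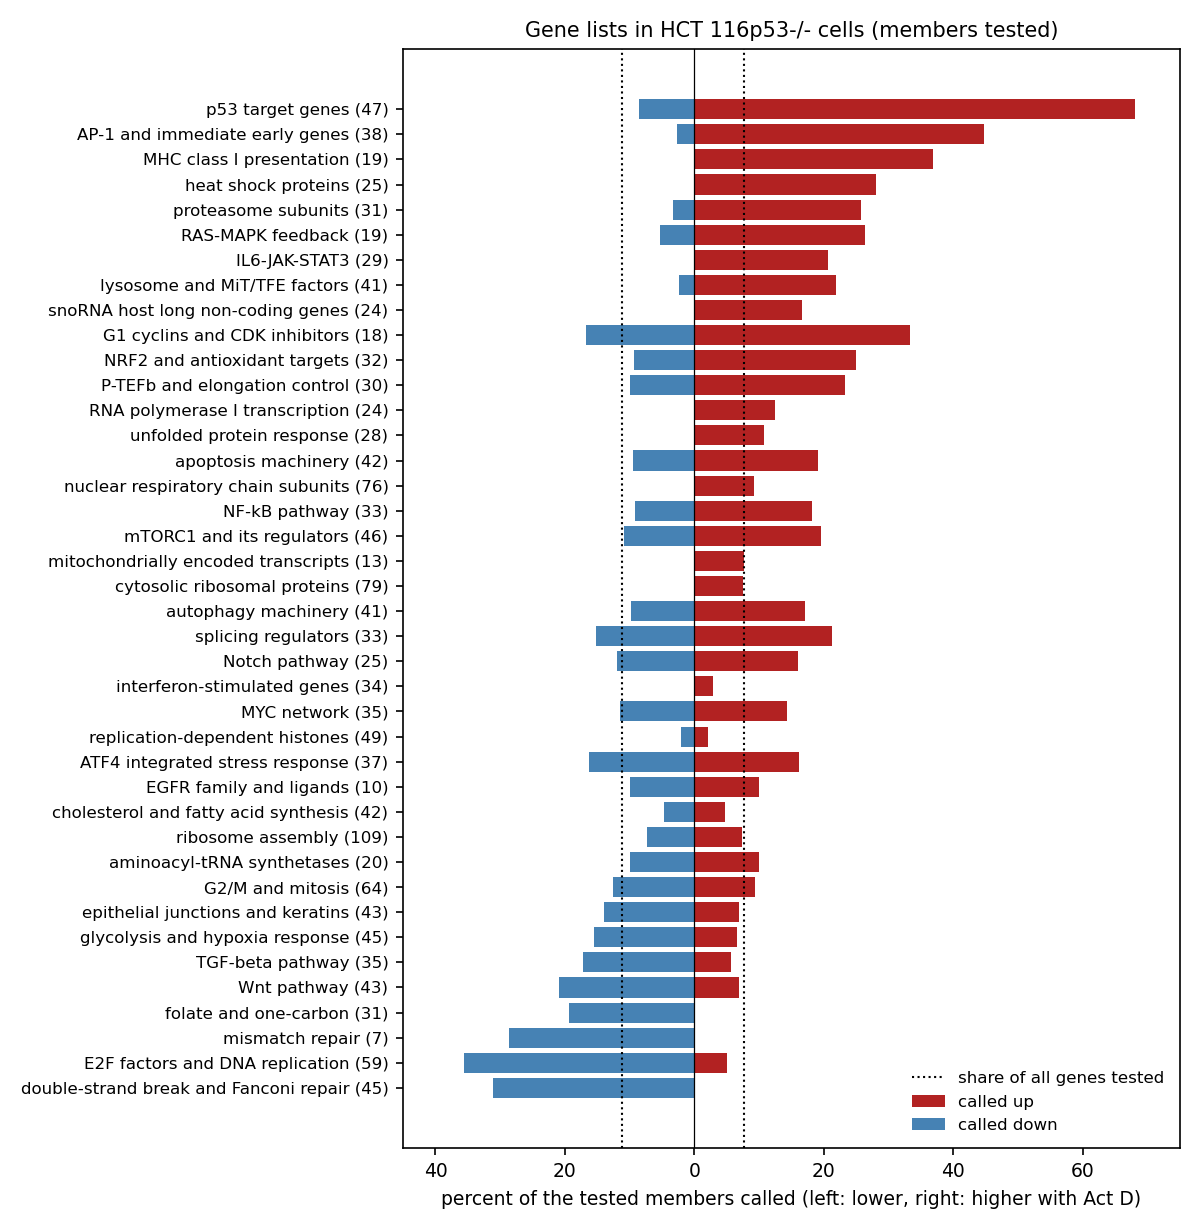
Percent of the tested members of each gene list called higher (red, to the right) and lower (blue, to the left) with Act D, with the number tested in brackets and dotted lines at the shares of all genes, 7.72% and 11.2%. The p53 target list with 32 of 47 and the immediate early list with 17 of 38 reach farthest to the right, and replication (21 of 59) and double-strand break repair (14 of 45) farthest to the left.

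Mitochondrial transcripts took a larger share of the counts with Act D. They made up between 7.98% and 9.51% of the vehicle libraries and between 10.5% and 12.1% of the Act D libraries, a difference with p = 0.1 in an exact two-sided permutation test, the smallest value that 3 libraries against 3 can give. Most of this was MT-RNR2, the large mitochondrial ribosomal RNA, at 55014, 54803 and 54193 CPM with vehicle against 76680.0, 72681 and 88000.0 CPM with Act D (log2 fold change 0.53 ± 0.12, adjusted p = 0.00231). Of 13 mitochondrially encoded messenger RNAs 1, MT-ND2, was called, with the call lost under some alternative (adjusted p up to 0.137), and the median log2 fold change was 0.46, with wide spread between libraries. The nuclear genes of the respiratory chain, 76 in all, had 7 that rose (9.21%, beside 7.72% of all genes) and none that fell. None of them rose under scaling by total count and 15 rose under the upper quartile.

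Long non-coding genes were called in both directions. MIR22HG, the host transcript of miR-22, was at 3.76, 3.24 and 3.44 CPM with vehicle against 11.2, 10.1 and 11.98 CPM with Act D (log2 fold change 1.66 ± 0.14, adjusted p = 1.70e-08), and MIR34AHG, the host of miR-34a, at 2.66, 3.24 and 3.44 and then 8.098, 8.99 and 6.68 CPM (log2 fold change 1.35 ± 0.23, adjusted p = 1.26e-04). NEAT1, the scaffold of paraspeckles, was at 94.8, 97.5 and 114 CPM with vehicle against 179.7, 260.1 and 276 CPM with Act D (log2 fold change 1.22 ± 0.26, adjusted p = 0.0123). In these 3 the Act D libraries were all above the vehicle libraries, which the rule that named them required. Among those that fell, ENSG00000260917 was at 26.96, 24.998 and 26.4 and then 6.04, 6.36 and 5.95 CPM (log2 fold change -2.09 ± 0.16, adjusted p = 2.37e-09), and ENSG00000259976 at 39.99, 37.2 and 39.9 and then 10.96, 14.3 and 12.4 CPM (log2 fold change -1.64 ± 0.13, adjusted p = 4.56e-09). Whether reads were counted by strand is not given in the sources used here, and without it reads of overlapping antisense genes cannot be told apart from theirs.

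Across genes, the share called lower rose with genomic span. The shares by span and by promoter leave out the 584 genes that are far more abundant in the libraries labelled RPL3 KO, described further on. When genes were divided into 5 equal classes by span, in the shortest class, up to 8.13 kb, 4.85% of genes fell and 7.78% rose, in the next 5.15% and 12.7%, in the middle class 6.41% and 10.6%, in the class above it 10.7% and 5.59%, and in the longest class, from 92.0 kb, 31.3% fell and 1.73% rose. When each library was left out in turn, between 22.9% and 27.7% of the longest class fell. Among genes with at least 10 CPM in vehicle cells 45.3% of the longest class fell. The median span was 105 kb among genes that fell, 18.5 kb among those that rose and 27.4 kb among those not called, and with the trend over transcript length removed from the counts 28.0% of the longest class still fell.

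Genes over 300 kb made up a smaller part of the nuclear counts with Act D, 0.951% ± 0.024 (SD, n = 3) against 1.42% ± 0.08 with vehicle (exact two-sided permutation p = 0.1, the smallest possible). Of 512 such genes, with the same genes left out, 38.9% fell and 0.781% rose. Abundant examples, chosen after their values were seen, were MED13L, a subunit of the Mediator kinase module with a span of 319.8 kb, at 238, 239 and 229 CPM with vehicle against 88.7, 87.2 and 99.01 CPM with Act D (log2 fold change -1.36 ± 0.09, adjusted p = 2.16e-10), and MAGI1, a junction scaffold of 685 kb, at 63.5, 61.2 and 63.9 and then 16.5, 19.7 and 18.6 CPM (log2 fold change -1.78 ± 0.11, adjusted p = 2.16e-10). PCDH7, a protocadherin of 426 kb (log2 fold change -1.49 ± 0.10, adjusted p = 5.01e-10), and AGAP1, an Arf GTPase-activating protein of 638 kb (log2 fold change -1.76 ± 0.13, adjusted p = 1.30e-09), were among them too. RPTOR spans 422 kb, ROR1 407 kb, KAZN 1225 kb and the polarity gene PARD3 706 kb (log2 fold change -0.97 ± 0.11, adjusted p = 8.05e-07), while SLC19A1 spans 79.8 kb and ITPRIPL2 7.698 kb.

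Promoter composition differed as well, over the 7823 of these genes with a single promoter window. The median GC content of the window was 69.0% among genes that fell, 65.2% among genes that rose and 65.3% among the others, and the median number of CpG was 31, 26 and 27. In 5 classes of equal size by GC content, 19.2% of the class with the highest content fell and 8.75% of the lowest. Both features were seen together, with these genes divided anew into 5 equal classes by span. In the longest of these classes, from 84038 bases, 39.4% of genes in the class of highest GC content fell, against 28.9% of the others. In the shortest, up to 9174 bases, 10.2% fell against 4.88%. These shares are over genes, which are not independent of each other, and are given without a test.

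**Figure D4:**
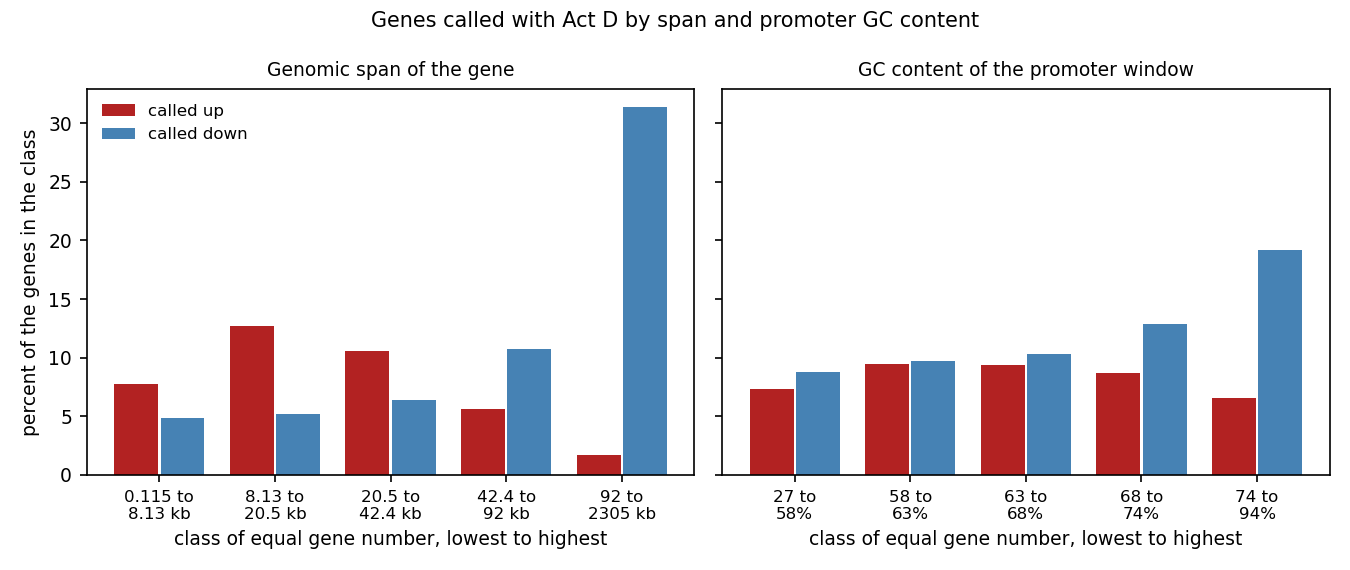
Percent of genes called higher (red) and lower (blue) with Act D in 5 equal classes of genomic span (left, kb) and of the GC content of the promoter window (right, percent). The blue bars climb from 4.85% to 31.3% with span and from 8.75% to 19.2% with GC content, and the red bars drop to 1.73% in the longest class.

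The response differed from that of the libraries labelled RPL3 KO for 1094 genes, 6.97% of those tested, by the interaction contrast of the same fit with the same adjustment (712 without Act D replicate 1 of HCT 116p53-/- cells). Of the 2976 genes called in HCT 116p53-/- cells 735 were among them. In both lines 774 were called, whatever the direction in each, so that they include genes such as SESN2 that rose here and fell there. Of all genes tested 3.57% rose and 8.54% fell in the libraries labelled RPL3 KO. Of the p53 target list 21 members had a different response, 19 of them genes that rose here, and in the libraries labelled RPL3 KO 8 of the 47 rose and 11 fell (3.57% and 8.54% of all genes did so there), with a median log2 fold change of 0.07. The difference for CDKN1A was 1.56 on the log2 scale (log2 fold change 1.77 here and 0.22 there, adjusted p of the difference = 1.60e-08). For MDM2 it was 1.47 (0.92 here and -0.55 there, adjusted p = 2.62e-07), and for SESN2 1.95 (1.41 and -0.55, adjusted p = 7.03e-07). Both MDM2 and SESN2 therefore moved in opposite directions under the same drug.

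Other genes had responses of like size. The difference was -0.07 for CDK6 (log2 fold change -0.91 here and -0.84 there), 0.10 for EGFR (-1.15 and -1.25), 0.03 for SLC2A1 (-0.75 and -0.78) and -0.00217 for SRSF3 (-0.63 and -0.62), and none of these differences passed the test, which does not show that the responses are equal. In the list of double-strand break repair 8 of 45 responses differed, and the median log2 fold change was -0.20 here and 0.01 there.

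**Figure D5:**
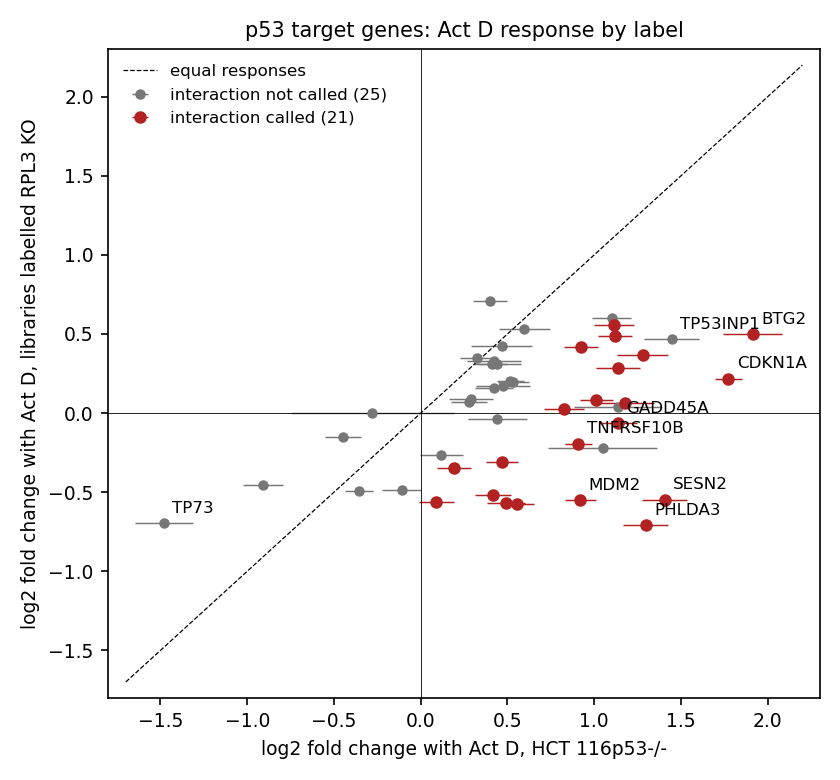
Log2 fold change with Act D of 46 of the 47 p53 target genes in HCT 116p53-/- cells (horizontal, bars are standard errors) and in the libraries labelled RPL3 KO (vertical), with the 21 genes whose responses differed in red and a dashed line where responses are equal. All 21 red points lie below the line, with CDKN1A at 1.77 and 0.22 and MDM2 at 0.92 and -0.55.

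Some of the calls fell on genes that are far more abundant in the libraries labelled RPL3 KO. There were 584 tested genes whose mean in the vehicle libraries with that label was at least 16 times their mean over the 6 HCT 116p53-/- libraries. Of these 52 rose and 3 fell with Act D, and they made up 43 of the 189 genes that rose by at least 1 on the log2 scale. For the 53 of them with at least 100 times the level and at least 20 CPM there, the median level as a percent of that in the vehicle libraries labelled RPL3 KO was 0.296, 0.259 and 0.248 in the 3 vehicle libraries and 0.806, 0.739 and 0.992 in the 3 Act D libraries, and all 53 had a positive fold change. FABP4, a fatty acid carrier of fat cells, is an example chosen after its values were seen, at 0.519, 0.826 and 0.181 CPM with vehicle against 7.101, 6.15 and 5.15 CPM with Act D, beside 932 CPM in the vehicle libraries labelled RPL3 KO. The part of RNA or reads from other libraries in these values was not tested. No member of the p53 target list was among the 584 genes, and without them 1159 of 15108 genes rose (7.67%) and 1762 fell (11.7%).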

How the data were processed

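RNA-seq of 12 libraries (TruSeq RNA, paired ends on a NovaSeq6000) was deposited by the authors as RSEM expected counts, not normalised, made after trimming and removal of ribosomal RNA reads with RSEM 1.2.25 on Ensembl hg38; a read that fits several genes is divided between them. Vehicle replicate 2 of HCT 116p53-/- cells was deposited per transcript and was summed per gene. The deposited TPM columns, which the authors' RSEM run scaled by transcript length, and the FPKM columns were not used.

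Counts were rounded, filtered with filterByExpr of edgeR 4.0.16 (15692 of 33990 genes with any count kept) and normalised by TMM. All 12 libraries entered 1 robust quasi-likelihood fit with a coefficient per group, and Act D was contrasted with vehicle within HCT 116p53-/-. The interaction contrast compared the 2 responses. Values after ± are standard errors of log2 fold changes unless SD is written, with 3 libraries in each group. Names, spans and exons came from GENCODE 44, promoter windows from RefSeq, and genes with 1 window were used. No set test was run: lists are described by counts and medians. The counts are to be read beside the shares of all genes tested, 7.72% that rose and 11.2% that fell. Genes were named by a rule: the 12 largest changes each way with at least 5 CPM, no overlap and no excess in libraries labelled RPL3 KO, the 5 largest CPM differences each way, up to 4 leading members of each list each way, 4 long non-coding genes each way, RPL3 and 4 autophagy genes. Some genes that the rule names are not reported here. Members, lists and rules were chosen with earlier results of these data known. Alternatives were DESeq2 1.42.0, the likelihood-ratio test, library size alone, upper quartile, other filters, only the 6 libraries in the fit, a replicate block, a length trend, a fold threshold and leaving out each library. The tests were first run on simulated counts. R 4.3.3 and Python 3.11 were used. The total counts per library, given in the results, limit the precision.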

Additional observations from a re-analysis of the deposited data

Results flagged for a closer look

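For 64 genes named in the report the response to Act D differed between HCT 116p53-/- cells and the libraries labelled RPL3 KO, by the interaction contrast of edgeR's quasi-likelihood fit at an adjusted p under 0.05. The values are the log2 fold change in HCT 116p53-/- cells minus that in the libraries labelled RPL3 KO. The difference was positive for 35 genes and negative for 29, and for 24 the 2 fold changes had opposite signs. For some of the 24 the value in the libraries labelled RPL3 KO was near 0, such as -0.0037 for BAG3 and -0.0097 for CARD9. The sign of such a value says little, so that the 24 are not all genes that moved in opposite directions. Of the p53 target genes, the difference was 1.56 for CDKN1A, 1.41 for BTG2, 1.95 for SESN2, 0.91 for SESN1, 1.201 for GADD45A, 0.63 for PLK2, 0.78 for E2F7, 1.10 for TNFRSF10B, 0.85 for FAS, 0.56 for PMAIP1, 1.47 for MDM2, 0.93 for PPM1D, 2.01 for PHLDA3, 0.51 for POLH and 1.11 for GDF15. Among early response and elongation genes, heat shock genes and other leading increases, the difference was 0.90 for ATF3, 0.93 for IER5, 0.61 for MCL1, 0.69 for ELL2, 0.99 for SERTAD1, 1.85 for CARD9, 0.76 for BAG3 and 0.57 for ODC1. Among NF-kB, immune and lysosomal genes and autophagy genes, the difference was 0.85 for NFKBIE, 1.08 for TNFAIP3, 0.66 for TRAF3, 0.45 for HLA-E, 0.63 for GLA, 0.45 for ATP6V1D, 0.57 for ATG101, 0.62 for SQSTM1 and -0.49 for ATG7. Among genes of replication, repair and mitosis, the difference was 0.53 for ORC6, -0.88 for ORC2, -0.58 for ORC5, -0.68 for E2F2, -0.72 for XRCC2, -0.53 for BRCA1, -0.64 for BRCA2, -0.47 for ATM and -1.12 for CENPK. Among genes with a span of at least 319.8 kb, the difference was -1.10 for RPTOR, -1.65 for ROR1, -1.69 for KAZN, -0.42 for MED13L, -1.37 for MAGI1, -1.28 for PCDH7, -1.63 for AGAP1 and -1.01 for PARD3. Among the other genes that fell, the difference was -1.84 for SLC19A1, -2.03 for ARHGAP39, -1.23 for NACC2, -1.06 for CAPN15, -1.18 for ITPRIPL2, -1.22 for KITLG, -1.62 for TCF7L2, -0.63 for DDX10, -0.71 for SRPK2, -0.62 for MTR and 0.80 for TXNRD1. Among long non-coding genes and genes far more abundant in the libraries labelled RPL3 KO, the difference was 1.16 for MIR22HG, -1.28 for ENSG00000259976, -1.32 for ENSG00000260917 and 3.44 for FABP4. TXNRD1 and TRAF3 fell in both groups and less in HCT 116p53-/- cells. Part of the genes listed here were chosen for their size of response in HCT 116p53-/- cells, so that how many of them differ is no measure of how common such differences are: over all genes tested it was 6.97%. No gene was tested for a library far from the others, since each group holds 3.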

How the results depend on the processing

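Of 151 genes given with values, 134 were called, and 131 of these kept the call and the direction under every alternative but the fold threshold. That threshold, which drops every gene that changed by less than 1 on the log2 scale, is left aside in these counts. The other 3 were MTOR, ULK1 and MYC, given with their largest adjusted p in the report. These counts leave out POLR2F, CAVIN1, TAF1D, DHX58 and MT-ND2, which the report names without a level or fold change. Each of them also lost its call under some alternative. No called gene changed direction. Among the 17 genes with no call, POLR2A, FOS, BAX, SQSTM1 and CHEK1 passed the test under at least 1 alternative and 5 changed sign, all with an adjusted p of at least 0.694: with library size alone MCM2 stood at -0.0815, ATG13 at -0.0601 and UBTF at -0.0266 on the log2 scale, POLR1A at 0.00379 with the length trend removed and RPL3 at 0.0208 under the upper quartile, and with each library left out in turn ATG13 lay between -0.0347 and 0.106, MCM2 between -0.0279 and 0.0778 and RPL3 between -0.0257 and 0.00952. Counts moved more than single genes. Scaling by library size alone left 550 genes that rose. The titles give the groups the same replicate numbers. Across genes, the deviations of same-numbered libraries from their group means correlated at 0.031, 0.101 and 0.039, and those of differently numbered libraries at between -0.0985 and 0.054. The highest of the latter, that of Act D replicate 3 with vehicle replicate 1, exceeded 0.039. The numbers were not taken as pairs, and correlations this weak cannot decide whether they are. A fit of only the 6 libraries without a block gave 1601 genes that rose and 3735 called. With the replicate number as a block in that fit, 2122 genes rose and 4615 were called, and no call of a gene given with values was lost. Where a call also had to reach 1 on the log2 scale, 189 genes rose, 261 fell and 450 were called, among them 15 p53 targets and 6 early genes that rose, 1 replication gene that fell and 0 double-strand break repair genes, and 4.52% of the longest 20% of genes fell. Fits that each left out a library gave 697 to 952 genes that rose, 1906 to 2409 called and 712 to 958 whose responses differed between the lines; the lowest of each came without Act D replicate 1. Counts in smaller lists moved by more than 1.5 times with the scaling, in both directions, as given beside those lists. The cause was not tested for any of these shifts. At these depths a gene near 1 CPM rests on few counts, and small changes in such genes were not detectable.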
